A study of Mus musculus with 9 samples.

Results

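The 40 genes described here are interferon-stimulated genes, taken by symbol and looked up by mouse Entrez identifier. All 40 were found among the 27179 genes of the count tables. By role, 4 encode transcription factors, 24 are mainly targets of type I interferon, 7 are guanylate-binding proteins (GBPs) and 5 are immunity-related GTPases (IRGs). Their RNA was measured by RNA sequencing of splenic natural killer (NK) cells of C57BL/6 mice, lymphocytes that kill infected and transformed cells. There were 3 libraries of Id2-null and 3 of wild-type (WT) NK cells, kept in the cytokine IL-15 for 7 days, and 1 library each of WT cells labelled Immature, M1 and M2, sorted from spleen with no culture. The labels name cultured and sorted samples only by number, and these numbers were read in listed order. The sources used here do not give how Id2 was deleted, the sort markers, the sex or how many animals were used, and each p-value therefore reflects only sample-to-sample spread, which may be technical.

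Interferons are secreted proteins that warn cells of infection. Type I interferons act through IFNAR1 and IFNAR2 and a complex that holds STAT2 and IRF9 and binds the interferon-stimulated response element. Interferon gamma, a main product of NK cells, acts through its own receptor and the gamma-activated site, and it is the stronger inducer of IRF1 and of most GBPs and IRGs.

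Total counts were 4128414 to 4831831 per library, so that 3 counts, set here as the floor, stood for 0.578 to 0.764 CPM (counts scaled to library size). Id2, which encodes an inhibitor of E proteins, had 56, 113 and 44 counts in the Id2-null libraries and 1958, 1925 and 1945 in WT (log2 fold change -4.70, edgeR adjusted p = 0.00116). All 11 NK cell markers examined had counts in all 9 libraries. Xist stood at 657 to 874 CPM in the Id2-null libraries and at 0.208 to 1.16 CPM in WT, and the Y-linked Ddx3y at 0.220 to 0.634 and 71.8 to 78.5 CPM, so genotype and sex cannot be told apart. Some markers of other blood cells were higher in the sorted libraries. The summed level of 8 monocyte, macrophage and neutrophil markers was 0.204 to 3.12 CPM in the 6 cultures and 182, 197 and 887 CPM in Immature, M1 and M2. For 6 B cell markers these values were 0.578 to 1.98 CPM in the cultures and 22.2, 26.3 and 85.4 CPM. The sum of 6 T cell markers did not follow this order, with 73.8 CPM in M1 and 119 CPM in M2, inside the 53.0 to 325 CPM of the cultures, and 514 CPM in Immature.

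Promoter sequences of the members were read for 2 short motifs of interferon signalling. RefSeq windows of GRCm38.p6, from 250 bases before to 50 after each gene's start, were held for 29 of the 40 members. They were searched on both strands for the core of the interferon-stimulated response element, GAAA followed by any 2 bases and GAAA again, and for TTCNNNGAA, the core of the gamma-activated site, which reads the same on either strand. The first was found in 16 of 29 members (55.2%) and in 725 of the 18458 genes of the count tables that have a window (3.93%). The second was found in 10 of 29 members (34.5%) and in 9.02% of all these genes. By role, the response element core was in 9 of 18 type I targets, 3 of 3 GBPs, 3 of 4 IRGs and, among the transcription factors, in Stat2 alone of 4. A match describes the letters and is not evidence of binding. The 160 bases before the start are printed 5′ to 3′ on the gene's own strand for 3 type I targets that were lower in culture, for Gbp7, which was higher, and for the neighbouring IRG genes Igtp and Irgm2, with matches to either motif in capitals.
Isg15 (chr4:156200819-156200978, minus strand): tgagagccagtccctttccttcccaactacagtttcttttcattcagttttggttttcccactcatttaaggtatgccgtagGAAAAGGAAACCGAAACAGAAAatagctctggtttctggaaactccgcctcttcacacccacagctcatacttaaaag
Ifit1 (chr19:34640729-34640888, plus strand): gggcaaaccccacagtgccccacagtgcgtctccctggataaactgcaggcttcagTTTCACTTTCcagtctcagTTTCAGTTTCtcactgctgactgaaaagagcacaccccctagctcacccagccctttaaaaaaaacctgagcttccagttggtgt
Ifit3 (chr19:34583369-34583528, plus strand): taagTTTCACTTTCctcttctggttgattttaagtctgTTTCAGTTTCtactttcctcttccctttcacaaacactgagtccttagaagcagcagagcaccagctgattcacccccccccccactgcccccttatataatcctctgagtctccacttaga
Gbp7 (chr3:142530176-142530335, plus strand): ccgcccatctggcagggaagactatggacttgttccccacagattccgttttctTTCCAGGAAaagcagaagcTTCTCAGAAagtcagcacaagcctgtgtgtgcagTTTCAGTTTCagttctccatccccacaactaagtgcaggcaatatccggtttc
Igtp (chr11:58199396-58199555, plus strand): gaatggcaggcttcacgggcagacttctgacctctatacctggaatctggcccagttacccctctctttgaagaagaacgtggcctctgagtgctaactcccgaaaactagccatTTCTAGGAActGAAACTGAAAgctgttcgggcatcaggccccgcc
Irgm2 (chr11:58214817-58214976, plus strand): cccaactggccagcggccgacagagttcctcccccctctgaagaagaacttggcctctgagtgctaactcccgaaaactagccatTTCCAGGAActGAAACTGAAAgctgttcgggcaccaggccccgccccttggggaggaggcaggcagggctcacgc
Isg15 holds 3 overlapping response element cores, and Ifit1 and Ifit3 hold 2 each on the opposite strand, with no gamma-activated site core. Gbp7, Igtp and Irgm2 are among the 6 of 29 members with both motifs. The full windows of Igtp and Irgm2 share an unbroken run of 61 bases; other pairs were not compared.

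Levels differed widely among members. As RPKM, which is CPM divided by gene length in kilobases, the WT cultures held most of Gbp4 (mean 71.4 RPKM), the antiviral membrane tether Bst2 (63.0 RPKM) and the IRG gene Ifi47 (62.0 RPKM). They held least of Ifi44 (0.0716 RPKM), Ifit3 (0.401 RPKM) and Rsad2, which encodes viperin (0.505 RPKM). In the sorted libraries the order was another one, with Ifi47 (225 RPKM), the nucleotide hydrolase gene Samhd1 (114 RPKM) and Irf1 (75.3 RPKM) at the top. Isg15 ranked 28 of 40 by this level in WT cultures and 9 in sorted cells, Ifit3 ranked 39 and 24, and Gbp4 ranked 1 and 13. The map of all 40 members shows this split inside the family: many type I targets stand high in all 3 sorted libraries, while Mx1, Parp9, Eif2ak2, Gbp4 and Gbp7 stand low there.

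**Figure D1:**
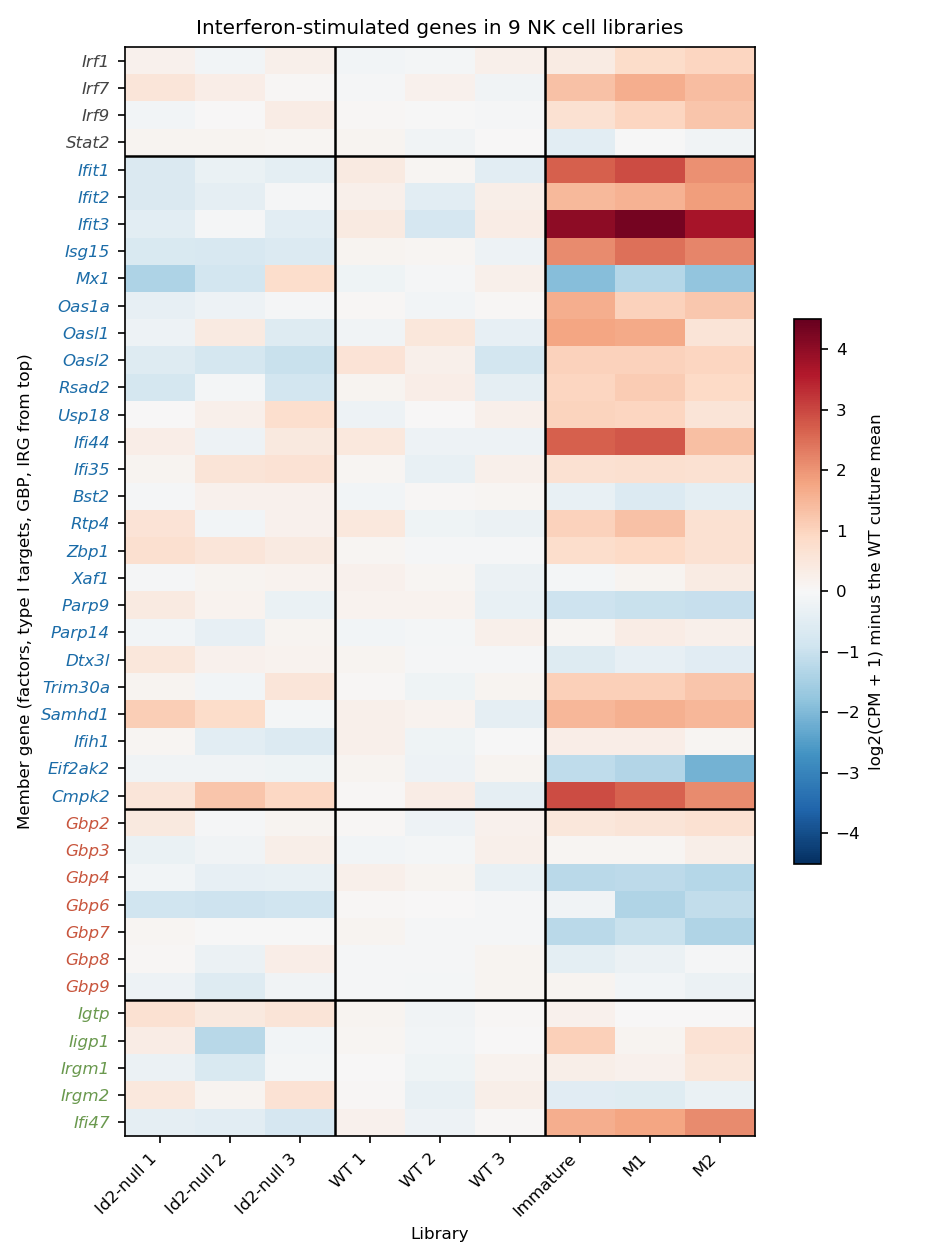
Each row is 1 member, grouped from the top as transcription factors, type I targets, GBPs and IRGs, and each column 1 library; colour is log2(CPM + 1) minus the mean of the 3 WT cultures. Ifit3 is the darkest row in the sorted libraries (21.3 to 32.8 CPM against 0 to 1.25 CPM in WT), and Gbp6 is pale blue in all 3 Id2-null columns.

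The first comparison was of Id2-null with WT cultures. In the main fit, on genotype alone, 1 interferon-stimulated gene, Gbp6, fell and 0 rose, of 33 members that passed the expression filter. Over all 11022 genes tested, 1.91% were higher and 1.52% lower (3.42% either way), so the members' 1 call (3.03%) is near the share over all genes. The median log2 fold change was 0.09 over the 33 members and 0.01 over all genes. The 7 members below the filter were Ifit1, Ifit3, Oasl1, Oasl2, Rsad2, Ifi44 and Iigp1, all at a mean of 2.39 CPM or less in either genotype. With unadjusted p under 0.05 there were 7 of the 33 members, beside 1613 of all 11022 genes. The fit blocked on replicate number, described below, called 6 of the 33 members (18.2%), beside 7.58% of all genes. Cell type markers differed between the genotypes as well. Summed NK cell markers ranged from 10174 to 13384 CPM for WT libraries and from 7545 to 8290 CPM for Id2-null ones. Gzma differed most, with mean 3704 CPM for WT against 465 CPM for Id2-null (adjusted p = 0.083), followed by Prf1. Means of Nkg7, Tbx21 and Cd244a were lower in Id2-null too, and those of Ncr1, Klrb1c, Klrk1, Klrd1, Il2rb and Eomes were higher. None of these markers was called in the main fit, but blocked on replicate number Prf1 and Tbx21 were lower (adjusted p 0.00563 and 0.0071). T cell markers summed to 214, 325 and 179 CPM in Id2-null and 55.2, 206 and 53.0 CPM in WT, with Cd4, Cd8a and Cd8b1 below the filter and Cd3d, Cd3e and Cd3g not called. With the replicate number as block, Cd3d was higher (adjusted p = 0.0014). Of the NK maturity markers, Cd27 was higher in Id2-null (182 ± 12.6 against 44.9 ± 5.58 CPM, adjusted p = 0.000197) and Klrg1 lower (1.75 ± 0.753 against 31.5 ± 6.85 CPM, adjusted p = 0.000553). The part of these markers' cells in the members' values was not tested.

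Gbp6 encodes an interferon-inducible GTPase of the family that coats intracellular pathogens and their vacuoles, and lies at chr5:105270702-105295871 (GRCm38) among Gbp8, Gbp9, Gbp4, Gbp10 and Gbp11. It stood at 20.5, 19.9 and 20.4 CPM in Id2-null replicates 1 to 3 and at 40.2, 38.7 and 37.2 CPM in WT. The groups lie far apart beside the spread within each, at 20.2 ± 0.325 and 38.7 ± 1.52 CPM (SD, n = 3 each). By edgeR's quasi-likelihood test with Benjamini-Hochberg adjustment, used for every adjusted p unless another tool is named, Gbp6 fell by 0.93 on the log2 scale (SE 0.13, adjusted p = 0.00795). Without WT replicate 1 the call was lost (adjusted p = 0.0589) at a log2 fold change of -0.91. In the same cluster Gbp10, a close relative, had 3, 5 and 12 counts in Id2-null and 23, 23 and 10 in WT (adjusted p = 0.291). Gbp11, annotated as a transcribed pseudogene, rose, with 48, 39 and 43 counts against 18, 15 and 7 (log2 fold change 1.75, adjusted p = 0.0414). The sources used here do not say how reads were shared among such near-identical copies. Values of single GBPs and IRGs, and of any other member with a close copy, are uncertain to that extent. Gbp11 was not called in the fit on all 9 libraries (adjusted p = 0.0556), nor without either of Id2-null replicates 1 and 2 or any 1 of the WT replicates (0.0705 to 0.162).

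The other 6 GBPs did not pass the test. Gbp4, the highest of the family per length in WT, stood at 293, 245 and 252 CPM in Id2-null and 372, 349 and 251 CPM in WT (log2 fold change -0.29, adjusted p = 0.49). Gbp7 stood at 261, 242 and 239.7 CPM against 269, 235 and 234 CPM, and the genotypes overlapped (0.02, adjusted p = 0.974).

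Among the IRGs, which act on pathogen vacuoles, values pointed both ways. Igtp, also known as Irgm3, stood at 107, 90.1 and 99.7 CPM in Id2-null and 72.7, 59.1 and 68.4 CPM in WT. Every Id2-null library was above every WT library, by 0.57 on the log2 scale (SE 0.13, adjusted p = 0.0527). Ifi47 stood at 77.9, 74.4 and 61.2 CPM against 118, 87.8 and 106 CPM. Here every Id2-null library was below every WT library (-0.54, SE 0.15, adjusted p = 0.114). Irgm2 stood at 78.1 ± 14.2 against 58.8 ± 12.4 CPM (0.42, adjusted p = 0.379), with overlap.

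Replicate numbers were shared between genotypes, and same-numbered libraries deviated together. Blocking on replicate number, 7.58% of all genes were called, 4.1% higher and 3.47% lower. With the block 4 members were higher, Igtp (adjusted p = 0.011), Samhd1 (0.0189), the nucleic acid sensor gene Zbp1 (0.0202) and Irgm2 (0.0472), and 2 were lower, Gbp6 (0.00484) and Ifi47 (0.0417). These 6 are 18.2% of the tested members. DESeq2, and edgeR with no expression filter, each called Igtp and Zbp1 higher and Gbp6 lower.

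The type I targets gave no call in 18 tested. Isg15, a ubiquitin-like antiviral protein, had 12, 12 and 14 counts in Id2-null and 26, 25 and 21 in WT. The genotypes did not overlap, and the log2 fold change of -0.85 (SE 0.30) had an adjusted p of 0.229. Cmpk2, a mitochondrial nucleotide kinase, had 19, 36 and 29 counts against 13, 17 and 9, higher by 1.16 on the log2 scale with no overlap (SE 0.38, adjusted p = 0.185). Zbp1 stood at 72.0, 63.2 and 57.3 CPM against 46.7, 42.2 and 41.6 CPM, higher in 3 of 3 Id2-null libraries (0.57, SE 0.13, adjusted p = 0.0598). Dtx3l, a ubiquitin ligase that partners Parp9, stood at 242, 194 and 191 CPM against 186, 166 and 164 CPM (0.29, adjusted p = 0.36). In all, 8 of the 33 tested members (24.2%) had genotypes that did not overlap, beside 20.4% of all genes tested. They were Isg15, Zbp1, Dtx3l, Cmpk2, Gbp6, Gbp9, Igtp and Ifi47.

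Replicate 3 stood apart in several type I targets, mainly in Id2-null for Mx1 and in both genotypes for Samhd1. For Parp9 it was likewise the lowest library of each genotype (Id2-null 101 CPM, WT 98.8 CPM). It was the highest of each for Parp14 (Id2-null 166 CPM, WT 177 CPM) and Trim30a (Id2-null 144 CPM, WT 107 CPM). Not every type I target shared this, and for Ifih1 replicate 3 was lowest in Id2-null only. Mx1 had 28, 46 and 154 counts in Id2-null replicates 1 to 3 and 75, 84 and 110 in WT. Id2-null replicate 3 lay above every WT library and the other Id2-null libraries below them (log2 fold change -0.19, SE 0.58, adjusted p = 0.932). Mx1 is annotated as a transcribed pseudogene in this build, since C57BL/6 carries a defective allele. Samhd1, which depletes the nucleotides that viruses need, stood at 341, 282 and 150.1 CPM in Id2-null and 187, 177 and 119.8 CPM in WT. The replicate 3 library was lowest in both genotypes, and the log2 fold change was 0.68 (SE 0.32, adjusted p = 0.405). Without Id2-null replicate 3, Mx1 was lower (-1.18, adjusted p = 0.0203) and Samhd1, Igtp and Zbp1 were higher (adjusted p 0.0149, 0.0382 and 0.0178). In that fit 3 of 38 members were higher and 2 lower, beside 387 and 275 of all 11227 genes. Without Id2-null replicate 1 or 2 the log2 fold change of Mx1 changed sign. Without replicate 3 of both genotypes the same 4 genes and Gbp6 were called, and Oasl2 was called lower as well. There 3 of 36 members were higher and 3 lower, beside 571 and 494 of all 11070 genes.

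The 4 transcription factors that carry the interferon signal showed no difference that passed the test. Irf7, which amplifies type I interferon production, stood at 39.6, 33.0 and 27.7 CPM in Id2-null and 26.0, 31.2 and 24.1 CPM in WT (log2 fold change 0.31, adjusted p = 0.514). Irf1 stood at 162 ± 20.1 against 151 ± 22.7 CPM, Irf9 at 45.1 ± 7.63 against 42.5 ± 1.5 CPM and Stat2 at 61.7 ± 0.475 against 57.4 ± 5.36 CPM (n = 3 each, adjusted p 0.823, 0.853 and 0.759). In all 4 the genotypes overlapped.

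**Figure D2:**
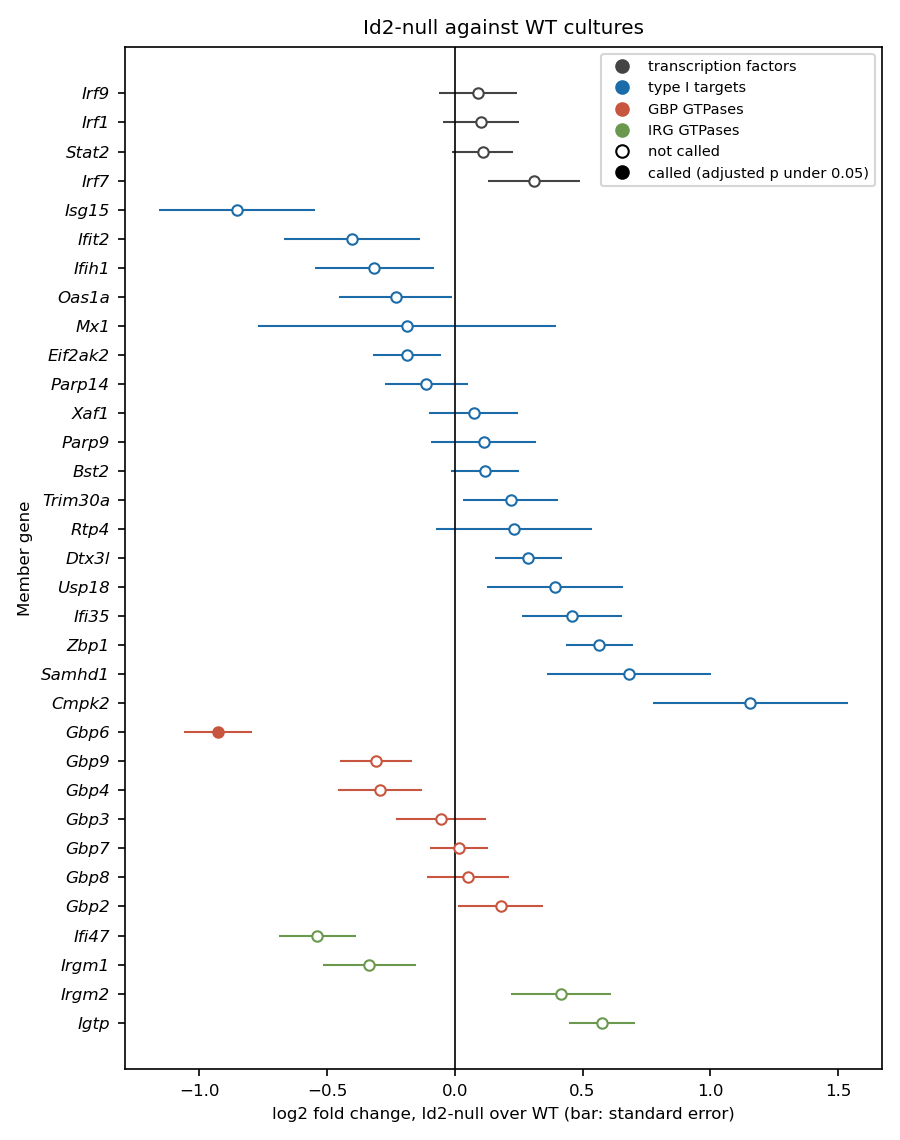
Points are log2 fold changes of the 33 tested members, Id2-null over WT cultures, with the standard error as bars, grouped by role and coloured alike; filled points passed the test. Gbp6, at -0.93, is the single filled point in this fit on genotype alone.

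Upstream of these genes, the listed ligands other than Ifng had 0 counts in all 9 libraries: Ifnb1, Ifna1, Ifna2, Ifna4, Ifnl2, Ifnl3, Ifne and Ifnk. Ifng stood at 16.1, 12.9 and 45.1 CPM in Id2-null and 42.5, 33.5 and 22.7 CPM in WT, which overlap (log2 fold change -0.40, adjusted p = 0.805). Of 7 tested receptor and kinase genes 1 rose (14.3%), beside 1.91% of all genes. All 7 log2 fold changes were above 0 (0.09 to 0.72, median 0.45), where the median of all genes was 0.01. Unadjusted p was under 0.05 in 6 of the 7, and in 1613 of all 11022 genes. Ifnar2, a chain of the type I receptor, went from 102, 88.9 and 97.6 CPM in WT to 143, 144 and 150.3 CPM in Id2-null (0.60, SE 0.11, adjusted p = 0.0189). Among 11 tested genes of nucleic acid sensing 1 rose, Mavs, the adaptor of the RNA helicases, from 67.7 ± 3.24 to 96.5 ± 5.37 CPM (0.52, adjusted p = 0.0441). Of 31 other interferon-stimulated genes tested 2 rose and 1 fell. Ifit1bl1, a relative of Ifit1, rose from 7, 5 and 9 to 27, 22 and 25 counts (1.87, adjusted p = 0.0245), and Ifi203 from 205 ± 23.8 to 324 ± 30.4 CPM (0.67, adjusted p = 0.0327). Ifi204, of the same family of DNA-binding proteins, fell from 14, 25 and 20 counts to 2, 3 and 4 (-2.60, adjusted p = 0.0184). None of 8 negative regulators were called. Mavs was not called by limma voom (0.0507) or in the fit on all 9 libraries (0.0504). These 5 calls were lost without either of Id2-null replicates 1 and 2 or any 1 of the WT replicates: Ifnar2 at adjusted p 0.0668 to 0.102, Mavs at 0.124 to 0.206, Ifit1bl1 at 0.0568 to 0.127, Ifi203 at 0.0613 to 0.136 and Ifi204 at 0.0568 to 0.1.

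The second comparison set the 3 WT cultures against the 3 sorted libraries, taken as 1 group of 3 different populations. It shares the WT libraries with the comparison above. Here 19 members were lower and 9 higher in culture, and 10 did not pass the test, of 38 tested. The background was high, with 29.4% of 11117 genes lower, 27.4% higher and 56.8% called in all, against 23.7% higher and 73.7% called among the members. The median log2 fold change of the members was -0.63, and that of all genes -0.02. WT and sorted libraries did not overlap in 29 of the 38 (76.3%), beside 65.7% of all genes. In bulk RNA, fewer cells of a type and less RNA per cell cannot be told apart, and the part of the other blood cells' RNA in the sorted libraries was not tested. In the sorted libraries Lyz2 and S100a8, myeloid genes at 0 counts in all 6 cultures, reached 231 and 163 CPM in M2.

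The type I targets that fell furthest in culture, among those tested, were Ifit3, Ifit1, Cmpk2 and Isg15. Ifit3, whose protein binds IFIT1 on viral RNA, had 6, 0 and 6 counts in WT cultures and 104, 136 and 85 in Immature, M1 and M2. The lowest sorted library held 85 counts and the highest culture 6. In culture Ifit3 was lower (log2 fold change -5.00, SE 0.52, adjusted p = 0.00018), and the ratio of summed counts, scaled, was 33.2 with a 95% counting interval of 18.8 to 65.0. The companion gene Ifit1 had 16, 12 and 7 counts in culture and 79, 101 and 51 sorted (-2.98, SE 0.38, adjusted p = 0.000319). Cmpk2 had 13, 17 and 9 against 105, 89 and 59 counts (-2.97, SE 0.34, adjusted p = 0.000203). Isg15 stood at 5.42, 5.20 and 4.04 CPM in culture and 24.5, 31.8 and 25.6 CPM sorted (-2.47, SE 0.22, adjusted p = 6.98e-05). Each of these 4 genes was several times higher in every sorted library than in any WT culture.

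Lower by a smaller step were Ifit2 (17.4 ± 4.82 CPM in culture and 55.4 ± 9.02 sorted, log2 fold change -1.66), Samhd1 (161 ± 36.4 and 459 ± 17.0, -1.5) and Oas1a, an RNase L activator (9.38 ± 0.736 and 24.7 ± 5.41, -1.39). The ubiquitin ligase Trim30a (97.7 ± 11.8 and 214 ± 17.6 CPM, -1.12) and Zbp1 (43.5 ± 2.76 and 76.0 ± 5.85 CPM, -0.80) were lower too, with n = 3 a group and adjusted p from 0.000233 to 0.000936 over these 5 genes. The remaining type I targets called lower were Oasl1 (-1.74), Rsad2 (-1.29), the receptor chaperone Rtp4 (-1.04), the deISGylase Usp18 (-0.90) and Ifi35 (-0.69). Of these, 3 rested on few counts or single libraries. Without M1, WT replicate 1 or WT replicate 3 Oasl1 had adjusted p 0.0582 to 0.0696 and Rsad2 0.0608 to 0.0739 (also 0.0514 in the fit on all 9 libraries), and Rtp4 had 0.0501 to 0.0597 without M1, WT replicate 2 or WT replicate 3. Ifi44, below the filter, had 3, 0 and 0 counts in culture and 26, 30 and 8 sorted, a ratio of summed counts of 26.2 (95% counting interval 8.56 to 130.3).

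Another 5 type I targets were higher in culture. Mx1 stood at 15.6, 17.5 and 21.2 CPM in culture and 4.08, 6.76 and 4.51 CPM sorted (log2 fold change 1.82, SE 0.26, adjusted p = 0.000588). Eif2ak2, the double-stranded RNA kinase PKR, stood at 60.0, 47.4 and 59.9 CPM against 24.7, 21.5 and 11.8 CPM (1.54, SE 0.26, adjusted p = 0.00126). Groups did not overlap in either gene. Parp9, of the same enzyme family as Parp14, and its partner Dtx3l, which neighbour each other on chromosome 16, were both higher in culture, at 126 ± 23.3 against 62.1 ± 2.18 CPM (1.02, adjusted p = 0.000776) and 172 ± 12.5 against 123 ± 8.58 CPM (0.50, adjusted p = 0.00729). Bst2 stood at 48.4 ± 3.99 against 35.1 ± 3.57 CPM (0.47, adjusted p = 0.022), and was not called without M1, WT replicate 2 or WT replicate 3 (adjusted p 0.0541 to 0.0868). Parp14, Xaf1, Ifih1 and Oasl2 did not pass the test. Parp14, an ADP-ribosyltransferase, stood at 152 ± 21.3 in culture and 177 ± 14.8 CPM sorted (-0.21, adjusted p = 0.223).

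**Figure D3:**
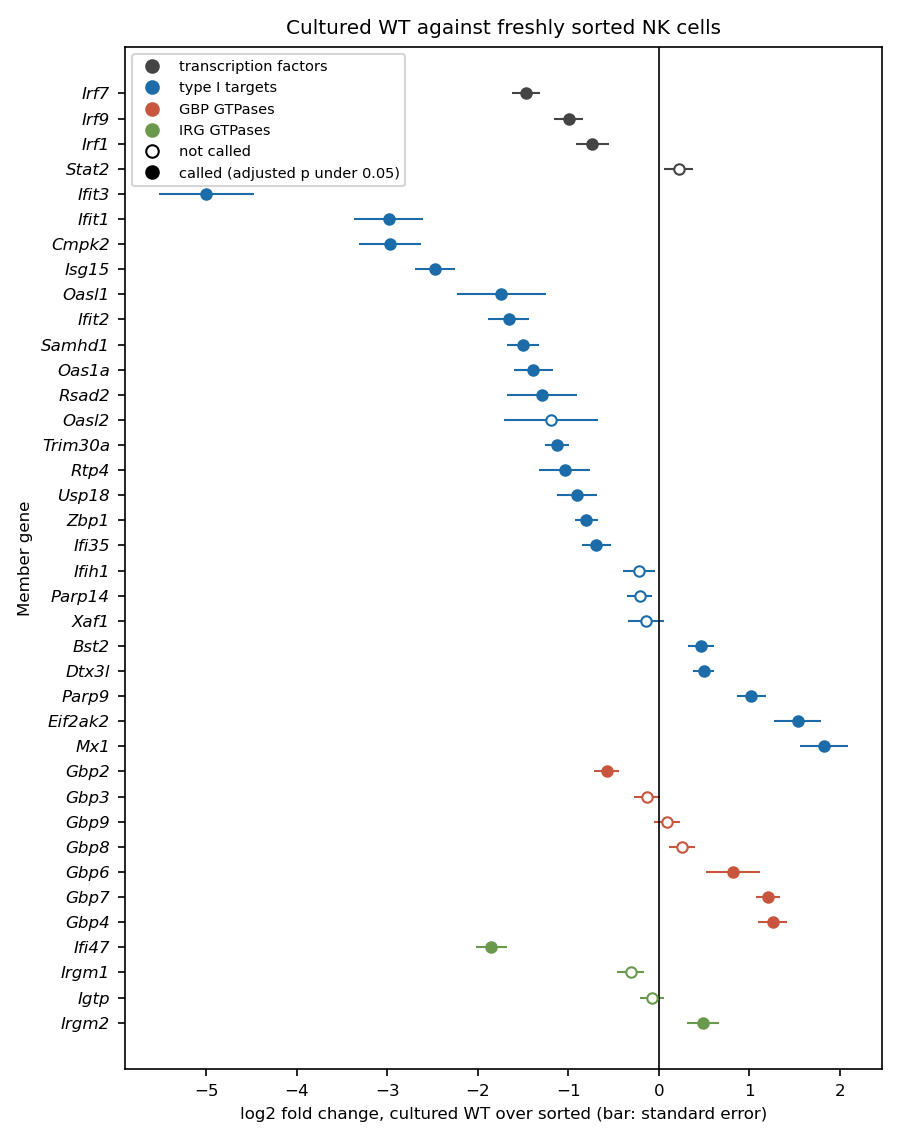
Points are log2 fold changes of the 38 tested members, cultured WT over sorted cells, with the standard error as bars, grouped by role; filled points passed the test. Type I targets run from -5.00 (Ifit3) to 1.82 (Mx1), while GBPs run from -0.58 (Gbp2) to 1.26 (Gbp4).

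Among the transcription factors 3 of 4 were lower in culture, beside 29.4% of all genes lower and 56.8% called. Irf7 stood at 26.0, 31.2 and 24.1 CPM in culture and at 68.5, 84.9 and 72.4 CPM in Immature, M1 and M2 (log2 fold change -1.47, SE 0.16, adjusted p = 0.000151). Irf9 stood at 44.2, 42.2 and 41.2 CPM against 69.3, 83.5 and 103 CPM (-0.99, SE 0.16, adjusted p = 0.000992). Irf1 stood at 151 ± 22.7 against 253 ± 52.0 CPM (-0.73, SE 0.18, adjusted p = 0.00803). In none of these did the groups overlap. Stat2 stood at 57.4 ± 5.36 against 49.5 ± 8.34 CPM, overlapped and was not called (0.22, adjusted p = 0.264).

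Of the 11 GBPs and IRGs tested, 4 were higher and 2 lower in culture. Among the GBPs 57.1% were called, near the 56.8% of all genes, and no difference between the roles was tested. Gbp4 stood at 372, 349 and 251 CPM in culture and 137, 139 and 132 CPM sorted (log2 fold change 1.26, SE 0.16, adjusted p = 0.000345). Gbp7 stood at 269, 235 and 234 CPM against 104, 121 and 95.2 CPM (1.21, SE 0.14, adjusted p = 0.00019). In both genes the lowest culture lay well above the highest sorted library. Gbp6 was higher in culture too (38.7 ± 1.52 against 22.0 ± 10.6 CPM, 0.82, adjusted p = 0.043), but Immature, at 34.1 CPM, lay near the cultures. Gbp6 lost its call without M1, M2 or any 1 of the WT replicates (adjusted p 0.0834 to 0.122). Gbp2 was lower in culture (69.9 ± 9.99 against 105 ± 6.59 CPM, -0.58, adjusted p = 0.00739), and Gbp3, Gbp8 and Gbp9 did not pass.

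Of the IRGs, Ifi47 stood at 118, 87.8 and 106 CPM in culture and at 321, 352 and 455 CPM sorted (log2 fold change -1.85, SE 0.17, adjusted p = 8.86e-05). Irgm2 was higher in culture at 58.8 ± 12.4 against 42.1 ± 4.33 CPM (0.49, adjusted p = 0.0444). That call was lost with DESeq2 (0.0511), limma voom (0.0554), the fit on all 9 libraries (0.0664) and without Immature, M1, WT replicate 1 or WT replicate 3 (0.084 to 0.134). Igtp, whose promoter resembles that of Irgm2, stood at 66.7 ± 6.95 against 70.5 ± 5.40 CPM (-0.07, adjusted p = 0.67). Irgm1 was not called either (50.6 ± 6.55 against 63.2 ± 7.61 CPM, adjusted p = 0.107), and Iigp1 was below the filter with 10, 8 and 10 counts against 20, 9 and 14.

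Scaling bears on these directions. By library size alone the median of all genes moved by 0.17 on the log2 scale, and the share of calls that were higher in culture went from 48.2% to 58.9%. Members then gave 10 higher and 19 lower, beside 33.5% and 23.4% of all genes (56.9% either way). Gbp8 was the added call (0.43, adjusted p = 0.0285), and the 28 members called with TMM scaling kept call and direction. Igtp (0.09), Gbp3 (0.04) and Xaf1 (0.03), called by neither scaling, changed sign.

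Both directions occurred with and without the promoter motif. Of the 16 members with the response element core in the window, 7 were lower in culture, 4 higher and 5 not called. Of the 13 without it, 9 were lower, 1 higher, 2 not called and 1 not tested. Isg15 and Gbp7, both printed above with the motif, went opposite ways.

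**Figure D4:**
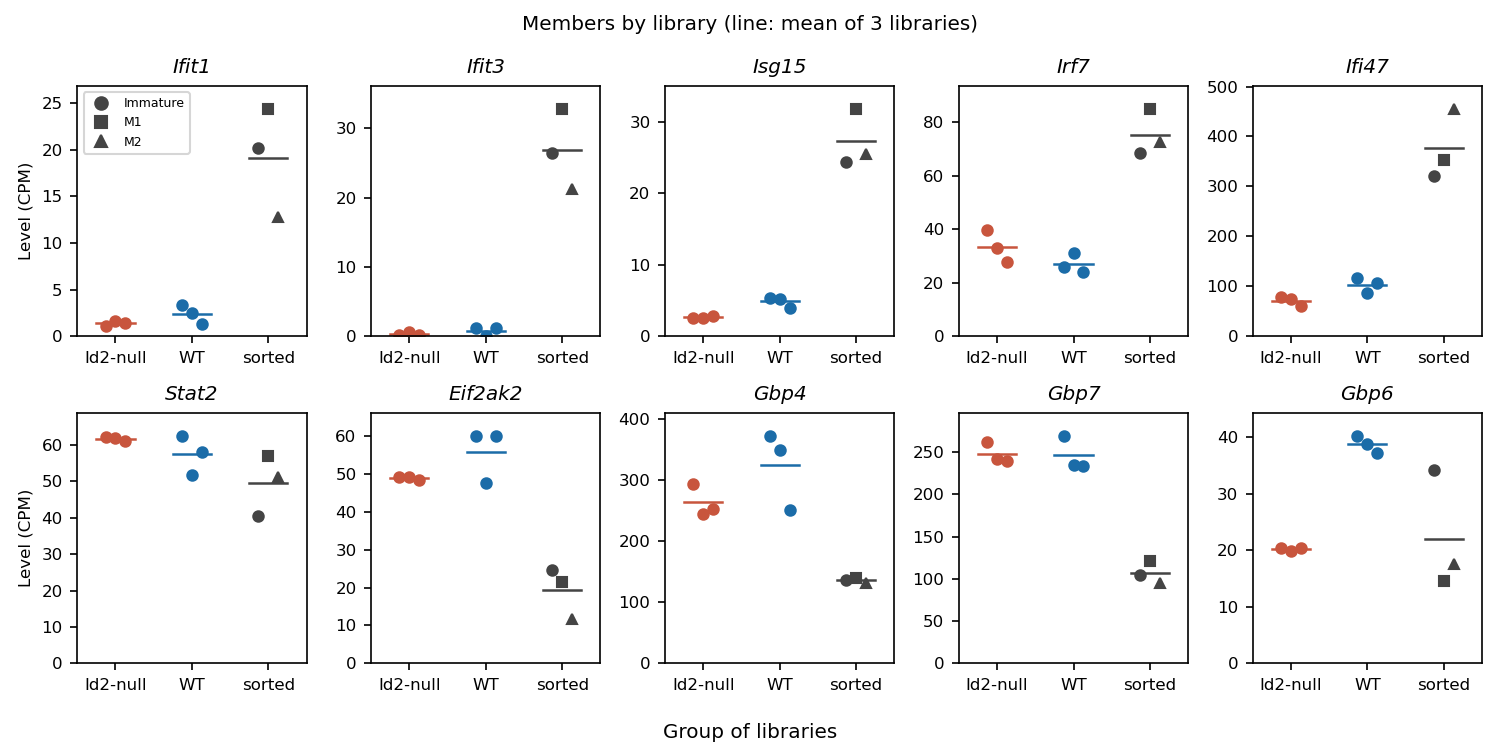
Points are CPM of 10 members in each library, by group, with a line at the mean of 3 libraries and symbols for the 3 sorted populations; each panel has its own axis from 0. Ifit1, Ifit3, Isg15, Irf7 and Ifi47 stand high in sorted cells, Eif2ak2, Gbp4 and Gbp7 in culture, and Gbp6 is near 20.2 CPM in Id2-null, 38.7 CPM in WT and 34.1 CPM in Immature.

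The signalling genes around the members differed as well. Ifng stood at 42.5, 33.5 and 22.7 CPM in culture and 98.8, 184 and 131 CPM sorted (log2 fold change -2.06, adjusted p = 0.000821). Of 7 tested receptor and kinase genes 5 were lower and 1 higher in culture (85.7% called). Of all genes 29.4% were lower, 27.4% higher and 56.8% called, and the 7 genes were not tested against that share. Jak1, the kinase shared by all interferon receptors, stood at 949 ± 23.3 against 2604 ± 154 CPM (-1.45, adjusted p = 7.77e-05), and Ifnar1 at 209 ± 24.6 against 120.5 ± 22.2 CPM (0.80, adjusted p = 0.00347). Il10rb (-0.96, adjusted p = 0.000438) and Tyk2 (-0.71, adjusted p = 0.00558) were lower. Among other IRFs, Irf2 was lower (-0.67, adjusted p = 0.00575) and Irf4 higher (1.48, adjusted p = 0.0432). The call of Irf4 was lost in 7 of the alternatives, among them those without M1, M2 or any 1 of the WT replicates (0.059 to 0.115).

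Calls among feedback inhibitors (37.5% of those tested) and sensors (54.5%) were no more frequent than over all genes (56.8%). Of 8 negative regulators 2 were lower, Socs3 (10.5 ± 3.85 against 57.7 ± 22.5 CPM, -2.45 on the log2 scale, adjusted p = 0.00135) and the repressor partner Irf2bp1 (-1.25, adjusted p = 0.000419), and 1 higher, Socs1 (63.1 ± 9.87 against 32.2 ± 10.6 CPM, 0.98, adjusted p = 0.00942). Of 11 sensing genes 4 were higher and 2 lower. Examples are Ikbke, an IRF-activating kinase (1.07, adjusted p = 0.00443), the DNA sensor Cgas (0.77, adjusted p = 0.00872) and the adaptor Myd88 (-1.09, adjusted p = 0.000164). Ddx58, which encodes RIG-I, was higher (0.42, adjusted p = 0.0165) but not without WT replicate 1 (0.0543). Of 33 other interferon-stimulated genes 15 were lower and 4 higher (57.6% called), near the 56.8% of all genes. Ifit1bl1 (-4.26, adjusted p = 3.02e-05), Phf11b (-2.82, adjusted p = 1.25e-05) and Sp100 (-1.05, adjusted p = 0.000321) were lower, and the exonuclease gene Isg20 was higher, at 22.4 ± 7.06 against 2.17 ± 1.05 CPM (3.36, adjusted p = 0.000229). Of 5 other GBPs and IRGs Gbp5 was lower (-0.70, adjusted p = 0.00671) and Gm12250 higher (0.50, adjusted p = 0.0445). Gm12250 was not called with DESeq2, limma voom, the fit on all 9 libraries or without Immature, M1 or WT replicate 3 (0.0524 to 0.121).

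The sorted populations have 1 library each, so differences among them have no replicate check and no test. Among 9890 genes with a mean of at least 5 CPM, 37 members remained, and Oasl2, Rsad2 and Iigp1 did not. From Immature to M1, 0 members were past 2-fold higher and 1 lower, beside 1.92% and 3.15% of all these genes. From M1 to M2, 0 were higher and 2 lower, beside 2.94% and 1.47%. From Immature to M2, 0 were higher and 3 lower, beside 5.22% and 4.62%. The members' median log2 ratios were 0.08, -0.09 and -0.01 in these 3 pairs.

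Gbp6 differed most between Immature and the others, with 134 counts in Immature, 60 in M1 and 70 in M2. Immature over M1 was 2.36-fold (95% counting interval 1.73 to 3.25) and Immature over M2 1.95-fold (1.45 to 2.64). Oasl1, an OAS-like protein that lacks synthase activity, had 36, 36 and 14 counts in Immature, M1 and M2. Immature over M2 was 2.61-fold (1.38 to 5.25) and M1 over M2 2.48-fold (1.30 to 4.97). Ifi44 had 26, 30 and 8 counts, with M1 over M2 at 3.61-fold (1.62 to 9.12) and Immature over M2 at 3.30-fold (1.45 to 8.44). Eif2ak2 had 97, 89 and 47 counts, and Immature over M2 was 2.10-fold (1.47 to 3.04). In these last 3 genes M2 was the low population, and in Gbp6 Immature was the high one.

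The transcription factors stayed within 2-fold. M2 over Immature was 1.51-fold for Irf1 (95% counting interval 1.38 to 1.66), 1.48-fold for Irf9 (1.27 to 1.73), 1.26-fold for Stat2 (1.02 to 1.56) and 1.06-fold for Irf7 (0.892 to 1.25). Ifi47, the highest member per length in sorted cells, stood at 321, 352 and 455 CPM in Immature, M1 and M2, and M2 over Immature was 1.42-fold (1.32 to 1.52). Isg15 stood at 24.5, 31.8 and 25.6 CPM, and M2 over Immature was 1.05-fold (0.783 to 1.40). Counting intervals cover counting error only. The marker sums moved with the populations: the myeloid sum of 887 CPM was that of M2, and the T cell sum of 514 CPM that of Immature. Their part in these ratios was not tested.

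**Figure D5:**
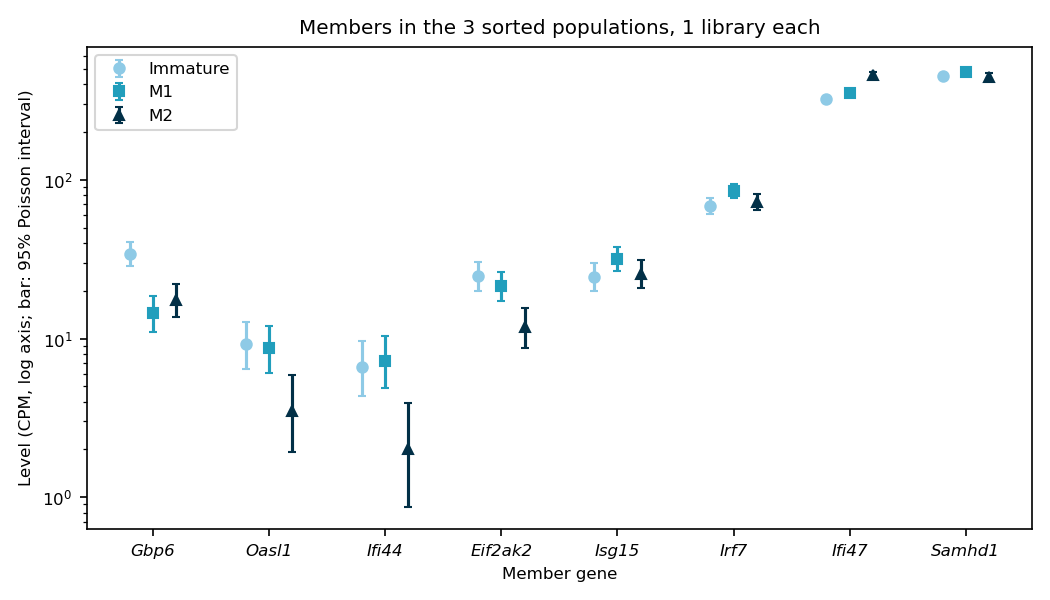
Points are CPM, on a log axis, of 8 members in Immature, M1 and M2, 1 library each, with 95% Poisson intervals for counting error as bars. Gbp6 is highest in Immature and Oasl1, Ifi44 and Eif2ak2 are lowest in M2, while Isg15, Irf7, Ifi47 and Samhd1 differ by less than 2-fold.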

How the data were processed

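Total RNA of 9 NK cell samples was sequenced. The deposited files give raw read counts by Entrez identifier, with each gene's length, per the file headers. The submitters' processing notes name Subread, featureCounts and limma with GRCm38 (mm10). Settings, strand included, are not stated in the sources used here. Totals were 4128414 to 4831831 counts. Symbols came from RefSeq (25275 genes) and GENCODE (18), and 1886 genes had none. Of 190 listed genes 189 matched.

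Both comparisons of 3 against 3 libraries were fitted in R 4.3.3 with edgeR 4.0.16 on the counts: filterByExpr with a minimum count of 10, TMM scaling, a robust quasi-likelihood fit and Benjamini-Hochberg adjustment over all genes tested, with calls at an adjusted p under 0.05. "Rose" and "fell" mean called. CPM use 1 TMM scaling over all 9 libraries, and values after ± are SDs of 3 libraries. DESeq2 1.42.0 and limma voom 3.58.1 were alternatives. On simulated counts 61% of 2-fold and 98% of 4-fold changes were recovered for Id2-null against WT (11022 genes), and 67% and 97% for WT against sorted (11117 genes). The simulation changed 100 genes at each fold and gave all genes the same dispersion. It held no replicate effect and no differences among sorted populations, so these rates need not hold for the real counts. Sorted populations were compared by exact Poisson and conditional binomial 95% intervals. These cover counting error alone, because without molecular identifiers reads are not independent molecules.

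Deviations of same-numbered Id2-null and WT libraries from their group means correlated at 0.35, 0.24 and 0.42 (replicates 1 to 3). Replicate numbers came from the sample titles. The main fit and its adjusted p-values used genotype alone, and the fit blocked on replicate number was an alternative. Blocked values are given where they change a member's call.

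The members and lists were chosen with earlier results of these data known. Named were the transcription factors, called members (with up to 12 each way in detail), the 2 most abundant members per role, sorted-population members past 2-fold, and up to 4 called genes per pathway list; others were named after their values were seen. One listed gene outside the members is not reported here.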

Additional observations from a re-analysis of the deposited data

How the results depend on the processing

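Alternatives were run for scaling, the tool, the filter, the replicate block, the libraries in the fit, and each library left out. In Id2-null against WT, 0 members higher became 2 with DESeq2 and with no filter, 4 with the replicate block and 0 to 3 with libraries left out (3 without replicate 3 of both genotypes). The 1 lower became 2 with the block and 0 to 3 with libraries left out. All genes higher, 210, became 316 with DESeq2, 452 with the block, 67 to 387 with 1 library left out and 571 without replicate 3 of both genotypes, and lower, 167, became 264, 383, 54 to 275 and 494. With 1 library left out the log2 fold change of Gbp7 ran from -0.020 to 0.080 (below 0 without Id2-null replicate 1 or either of WT replicates 2 and 3), that of Irf9 from -0.057 to 0.19 (below 0 without Id2-null replicate 3, and -0.078 without replicate 3 of both genotypes) and that of Mx1 from -1.18 to 0.19 (above 0 without Id2-null replicate 1 or, at 0.067, replicate 2). In culture against sorted cells, where no replicate numbers are shared, the members gave 6 to 10 higher and 16 to 20 lower over all alternatives. Igtp ran from -0.12 to 0.044 with 1 library left out (above 0 without WT replicate 2) and was 0.095 by library size. Between sorted populations, past 1.5-fold, 1 member was higher and 2 lower from Immature to M1, 6 were lower from M1 to M2, and 1 was higher and 6 lower from Immature to M2. The share of all genes past 1.5-fold is not given here, so these counts cannot be judged against it. Past 2-fold with a mean of at least 1 CPM, 2 members were lower from Immature to M1. With at least 20 CPM, 0 were lower from M1 to M2 and from Immature to M2. By library size 1 was lower from M1 to M2. The cause was not tested. Where a library is left out, a group of 2 remains. Depth limits Ifi44, with 3 counts or fewer in every WT library, and Ifit3, with 0 to 6.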
